A study of Mus with 10 samples.

Results

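The *Gimap* genes encode GTPases of immunity-associated proteins, a family of GTP-binding proteins found mainly in lymphocytes. All 8 mouse genes examined here, *Gimap1*, *Gimap3*, *Gimap4*, *Gimap5*, *Gimap6*, *Gimap7*, *Gimap8* and *Gimap9*, were found by name among the 24564 genes of the deposited count table, and all 8 passed the filter on low counts that left 11463 genes for testing. In liver type 1 innate lymphoid cells (ILC1s), *Gimap4*, *Gimap3* and *Gimap6* were among the most abundant transcripts of the cell. No member of the family passed the thresholds for a difference between cells with and without NKp46. The genotypes differed by at most 0.15 on the log2 scale for any member, while *Tmem176b* and *Tmem176a*, the next genes along the chromosome, were both lower by more than 1 log2 unit in NKp46-deficient cells.

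GIMAP proteins bind guanine nucleotides and are held on intracellular membranes, such as those of lysosomes, the endoplasmic reticulum and mitochondria. They are best known from the survival of lymphocytes. Rodents without functional *Gimap5* lose most peripheral T cells, and in mice NK cells are lost as well, and *Gimap1* is needed to maintain mature T and B cells. Other members act in cell death and autophagy, since *Gimap4* alters how quickly T cells die after a death signal and the GIMAP6 protein binds GABARAPL2 of the autophagy machinery.

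ILC1s are tissue-resident innate lymphocytes, and NKp46 is an activating receptor encoded by *Ncr1*. The series compared ILC1s sorted from livers of *Ncr1+/+* mice, which carry NKp46, with ILC1s from *Ncr1gfp/gfp* mice, in which *gfp* takes the place of both *Ncr1* copies throughout the body. There were 5 libraries of each genotype, all on the C57BL/6 strain, from mice of either sex and of 6 to 8 or 6 to 12 weeks, as the sources give both ages. The cells were sorted as lineage-negative, NK1.1-positive, CD49b-negative and CD49a-positive, with an antibody to NKp46 in *Ncr1+/+* and GFP in *Ncr1gfp/gfp* mice, so that the gates differed between the genotypes. The sources speak of RNA pools. The methods name a supplier for the *Ncr1+/+* mice and not for the *Ncr1gfp/gfp* mice, whereas another statement has both genotypes bought from it. The number of mice behind each library is not given, so that p-values measure the spread between libraries only.

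Libraries held between 15796253 and 22623133 counts, and depth did not differ between the genotypes beyond the spread of the libraries (p = 0.254, exact permutation test, two-sided). *Ncr1* itself had 1913 to 2144 CPM (counts scaled to the library size by TMM) in the *Ncr1+/+* libraries and 141 to 356 CPM in the *Ncr1gfp/gfp* libraries, where its mean was 12.7% of that in *Ncr1+/+*. The ILC1 markers *Itga1*, *Klrb1c*, *Tnfsf10*, *Cxcr6*, *Tbx21* and *Cd200r1* all had means of 132 CPM or more in both genotypes. None of these markers was called, although *Itga1*, which encodes the CD49a used for sorting, had 971 CPM in *Ncr1gfp/gfp* and 779 CPM in *Ncr1+/+* ILC1s without overlap. A lack of overlap in either direction was found for 3.11% of all tested genes. The adjusted p-value of *Itga1* was 0.000481 (edgeR's quasi-likelihood test), and only its fold change of 1.25 kept it from being called. B cell markers summed to at most 5.99 CPM in any library and macrophage markers to at most 23.2 CPM, and hepatocyte markers to at most 5.60 CPM except in *Ncr1gfp/gfp* replicate 3 (54.3 CPM) and *Ncr1+/+* replicate 1 (31.5 CPM). Among endothelial markers, *Pecam1*, which many leukocytes also make, stood at 138 and 130 CPM in *Ncr1gfp/gfp* and *Ncr1+/+* ILC1s, whereas *Stab2*, *Kdr*, *Cdh5*, *Clec4g* and *Egfl7* were near or below 1 CPM and *Tie1* had no count.

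The family forms a single cluster. The table lists all 8 genes on chromosome 6, from the start of *Gimap8* at 48597233 to the end of *Gimap3* at 48720850, in coordinates whose genome build the table does not name. This is a span of 124 kb with no other listed gene between them. In chromosome order the genes are *Gimap8*, *Gimap9*, *Gimap4*, *Gimap6*, *Gimap7*, *Gimap1*, *Gimap5* and *Gimap3*. *Gimap6* and *Gimap3* are on the minus strand and the other members on the plus strand, and no member overlaps another listed gene. All 8 symbols matched protein-coding genes of the GRCm38.p6 RefSeq annotation, which places them in the same order. *Gimap1* and *Gimap5* are the closest pair, with 2.40 kb between the end of the first and the start of the second.

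To compare levels between genes, counts were also divided by the exon length that the table lists and by the scaled library size (RPKM). *Gimap4* had the highest level, with a mean of 1195 RPKM over the 10 libraries, and only 14 of the 11463 tested genes had a higher mean. *Gimap3* and *Gimap6* followed at 795 and 750 RPKM. *Gimap8* and *Gimap7* had 263 and 257 RPKM, and *Gimap1*, *Gimap9* and *Gimap5* had 119, 107 and 97.0 RPKM. For *Gimap5*, the lowest member, 449 tested genes had a higher mean, and the median over all tested genes was 11.3 RPKM.

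The levels fell into 4 steps that did not overlap between any libraries. The range of *Gimap4* over all libraries, 1118 to 1265 RPKM, lay above that of *Gimap3* (756 to 868 RPKM) and *Gimap6* (619 to 897 RPKM). These lay above *Gimap8* (242 to 292 RPKM) and *Gimap7* (220 to 293 RPKM), which in turn lay above the other 3 genes. Within a step the ranges of neighbours in this order overlapped, while those of *Gimap1* (109 to 129 RPKM) and *Gimap5* (86.0 to 101 RPKM) did not. *Gimap3* was above *Gimap6* in 9 of 10 libraries, and *Gimap8* was above *Gimap7* in 7 of 10. *Gimap1* was above *Gimap9*, and *Gimap9* above *Gimap5*, in 10 of 10 libraries. Because members of the family are related in sequence and reads that map to several places are not counted at the default settings of the counter, the levels of close relatives such as *Gimap3* and *Gimap5* are less certain than their comparison between libraries.

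**Figure D1:**
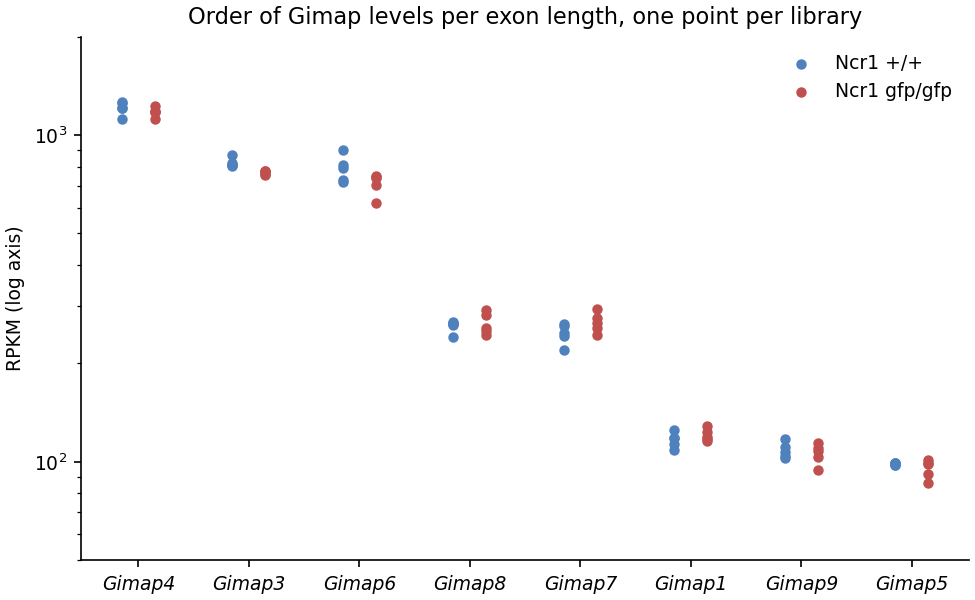
RPKM (log axis) of each *Gimap* gene, with 1 point per library, *Ncr1+/+* in blue and *Ncr1gfp/gfp* in red, ordered by the mean over all libraries. *Gimap4*, *Gimap3* and *Gimap6* lie between 619 and 1265 RPKM in every library, and the 5 other genes lie at or below 293 RPKM.

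*Gimap4*, *Gimap3* and *Gimap6* together made up 75.7% ± 0.497 of the family's summed RPKM in *Ncr1gfp/gfp* ILC1s, against 77.2% ± 1.16 in *Ncr1+/+* (SD over 5 libraries each). The 8 genes took 0.675% ± 0.0204 of all counts in *Ncr1gfp/gfp* and 0.702% ± 0.0246 in *Ncr1+/+* ILC1s. The libraries of the genotypes overlapped in the share of counts, whose lowest value was 0.641% in *Ncr1gfp/gfp* replicate 2 and whose highest was 0.731% in *Ncr1+/+* replicate 1.

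The comparison between the genotypes addresses whether the loss of NKp46 is accompanied by a change in this family. A gene was called where its Benjamini-Hochberg adjusted p-value was under 0.05 and its fold change also exceeded 1.5 or was less than 0.7, following the study's methods. Of the 8 members, 0 were called with edgeR's quasi-likelihood test, where 0.733% of all tested genes were called (0.201% higher and 0.532% lower in *Ncr1gfp/gfp*). An absolute log2 fold change above 1 in place of these fold changes left 0.201% of all tested genes and 0 members. With the adjusted p-value alone the count was also 0, against 1.35% of all tested genes. DESeq2, limma-voom and edgeR's likelihood ratio test called 0 members as well, against 1.1%, 0.672% and 1.2% of all tested genes. An unadjusted p-value under 0.05 was found for 2 members, *Gimap3* and *Gimap6*, and for 11.4% of all tested genes.

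The intervals were narrow. The 95% intervals of all 8 fold changes, *Ncr1gfp/gfp* over *Ncr1+/+*, lay between 0.826 and 1.18, inside the range from 0.7 to 1.5 that the thresholds leave uncalled. The same held for 68.5% of all tested genes. The median absolute log2 fold change was 0.051 for the members and 0.10 for all tested genes, and the median standard errors were 0.058 and 0.12. The log2 fold change was below 0 for 5 members, *Gimap3*, *Gimap4*, *Gimap5*, *Gimap6* and *Gimap9*, as it was for 49.3% of all tested genes, and the median log2 fold changes were -0.04 for the members and 0.003 for all tested genes.

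**Figure D2:**
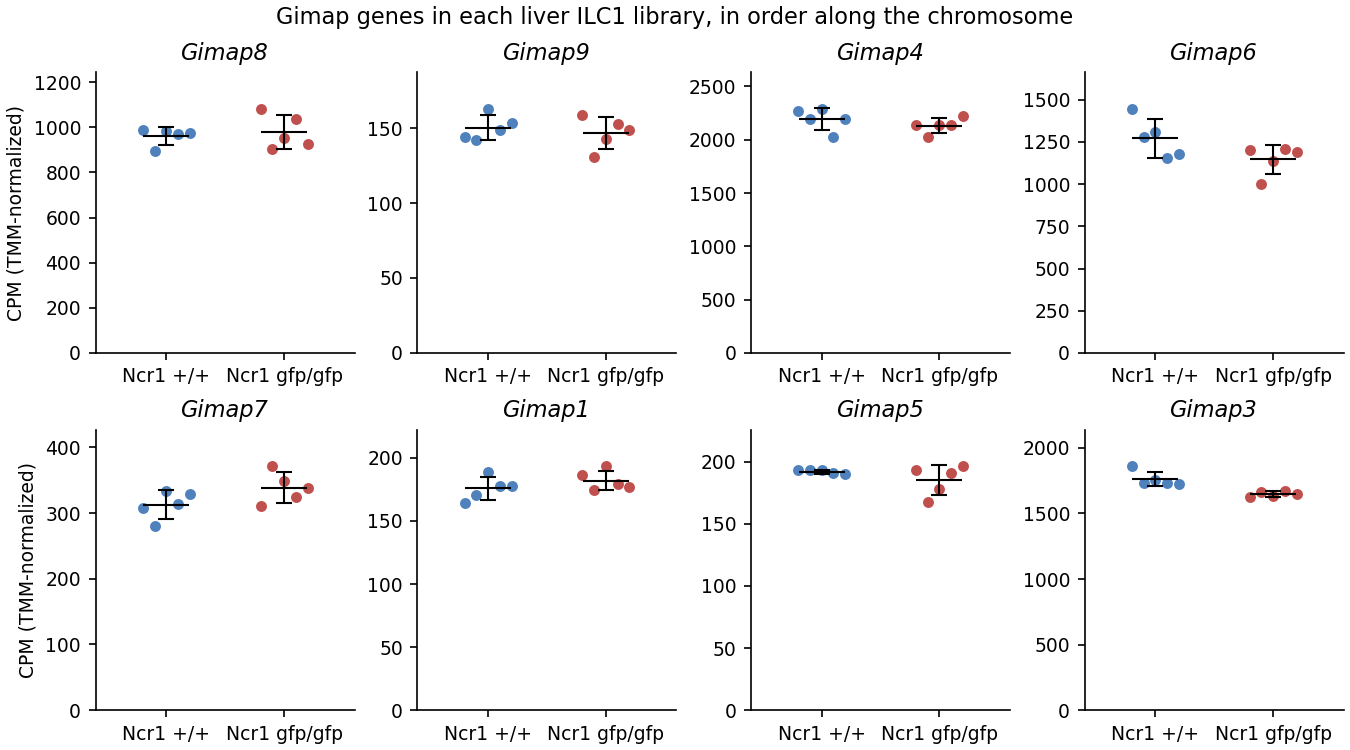
CPM of each *Gimap* gene in the 5 *Ncr1+/+* (blue) and 5 *Ncr1gfp/gfp* (red) libraries, with axes that start at 0 and black lines for the mean ± SD. Only the panel of *Gimap3* has no overlap, with all *Ncr1gfp/gfp* libraries at or below 1668 CPM and all *Ncr1+/+* libraries at or above 1727 CPM.

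*Gimap3* is the close relative of *Gimap5* and codes for a protein reported on mitochondria and the endoplasmic reticulum. Its CPM was 1622, 1667, 1635, 1668 and 1650 in *Ncr1gfp/gfp* replicates 1 to 5. In *Ncr1+/+* replicates 1 to 5 it was 1861, 1736, 1757, 1732 and 1727. All values in *Ncr1gfp/gfp* ILC1s lay below all values in *Ncr1+/+* ILC1s, which was so in that direction for 1.82% of all tested genes (3.11% in either direction). The exact permutation test on log2 CPM gave p = 0.00794, the smallest value that 5 libraries against 5 allow (two-sided). The size of the difference was small, with a log2 fold change of -0.10 (standard error 0.04), a fold change of 0.935 with a 95% interval of 0.887 to 0.987, and it was not called (adjusted p = 0.274, edgeR's quasi-likelihood test).

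*Gimap6*, whose protein binds the autophagy protein GABARAPL2, had the lowest fold change of the family. Its CPM was 1200.0, 998, 1138, 1206 and 1190 in *Ncr1gfp/gfp* replicates 1 to 5, and 1446, 1277, 1306, 1157 and 1176 in *Ncr1+/+* replicates 1 to 5. The highest 3 values were all in *Ncr1+/+* libraries and the lowest was *Ncr1gfp/gfp* replicate 2, but *Ncr1+/+* replicates 4 and 5 lay among the *Ncr1gfp/gfp* libraries. It had a log2 fold change of -0.15 with a standard error of 0.06 (edgeR's quasi-likelihood test, adjusted p = 0.314), or a fold change of 0.901 with a 95% interval of 0.826 to 0.983. Without *Ncr1+/+* replicate 1, the unadjusted p-value of the same edgeR test was 0.0509 for *Gimap3* and 0.0842 for *Gimap6*, and their log2 fold changes were -0.08 and -0.10. Without *Ncr1gfp/gfp* replicate 2, the p-value of *Gimap6* in this edgeR test was 0.0766. *Ncr1+/+* replicate 1 was the *Ncr1+/+* library with the most hepatocyte marker counts, and the part of this in the *Gimap* values was not tested.

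*Gimap7*, whose human counterpart stimulates GTP hydrolysis by another family member, had the highest fold change. Its CPM was 310, 372, 349, 325 and 338 in *Ncr1gfp/gfp* replicates 1 to 5, and 308, 280, 334, 314 and 330 in *Ncr1+/+* replicates 1 to 5. The extremes of the 10 libraries were *Ncr1gfp/gfp* replicate 2 at the top and *Ncr1+/+* replicate 2 at the bottom, with overlap in between. It had a log2 fold change of 0.11 with a standard error of 0.06 (edgeR's quasi-likelihood test, adjusted p = 0.496), a fold change of 1.08 with a 95% interval of 0.993 to 1.18.

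*Gimap5* and *Gimap1*, 2 members whose loss removes lymphocytes in mice, were close to equal in the 2 genotypes. *Gimap5* had 193, 167, 178, 191 and 196 CPM in *Ncr1gfp/gfp* replicates 1 to 5. In *Ncr1+/+* ILC1s it was between 190 and 193 CPM in all 5 libraries, so that every *Ncr1+/+* value lay within the *Ncr1gfp/gfp* range. Its fold change was 0.965 with a 95% interval of 0.887 to 1.05 (adjusted p = 0.826, edgeR's quasi-likelihood test). *Gimap1* was between 174 and 193 CPM in *Ncr1gfp/gfp* and between 164 and 189 CPM in *Ncr1+/+* ILC1s, with a fold change of 1.04 and an interval of 0.951 to 1.13 (adjusted p = 0.833 in the same edgeR test).

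*Gimap4*, the highest member, had 2137, 2024, 2137, 2141 and 2222 CPM in *Ncr1gfp/gfp* replicates 1 to 5 and 2269, 2191, 2290, 2028 and 2197 CPM in *Ncr1+/+* replicates 1 to 5. The lowest values of the genotypes were nearly equal, and the ranges overlapped over most of their length. Its fold change was 0.972 with a 95% interval of 0.916 to 1.03 (adjusted p = 0.790, edgeR's quasi-likelihood test). *Gimap8*, which carries several GTPase domains in 1 protein, was between 906 and 1082 CPM in *Ncr1gfp/gfp* and between 894 and 990 CPM in *Ncr1+/+* ILC1s. *Gimap9* was between 131 and 158 CPM in *Ncr1gfp/gfp* and between 142 and 163 CPM in *Ncr1+/+* ILC1s. The fold changes of *Gimap8* and *Gimap9* were 1.02 and 0.976, with 95% intervals of 0.945 to 1.10 and 0.889 to 1.07 (adjusted p = 0.918 and 0.914 in the same edgeR test).

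**Figure D3:**
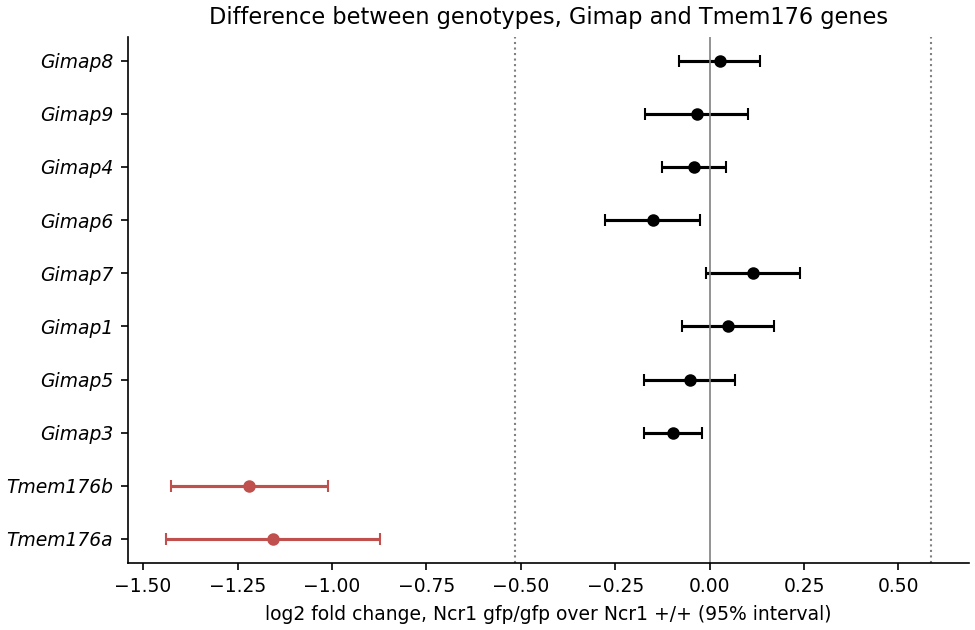
Log2 fold change of *Ncr1gfp/gfp* over *Ncr1+/+* ILC1s with its 95% interval from edgeR's quasi-likelihood fit, for the 8 *Gimap* genes in chromosome order (black) and for *Tmem176b* and *Tmem176a* (red); dotted lines mark fold changes of 0.7 and 1.5. All *Gimap* intervals lie between the dotted lines, and both *Tmem176* intervals lie below them.

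Spread between libraries of a genotype was also small. The coefficient of variation of CPM was between 0.890% and 9.14% over the 8 members and both genotypes. Its median was 6.75% in *Ncr1gfp/gfp* and 4.99% in *Ncr1+/+* ILC1s, against 12.7% and 12.0% over all tested genes, most of which had fewer counts. *Gimap6* varied most and *Gimap5* least among *Ncr1+/+* libraries. Members had between 2495 and 49661 counts in a library, so that counting error alone gave a coefficient of variation of 0.511% for *Gimap4* and 1.95% for *Gimap9* in *Ncr1gfp/gfp* ILC1s.

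**Figure D4:**
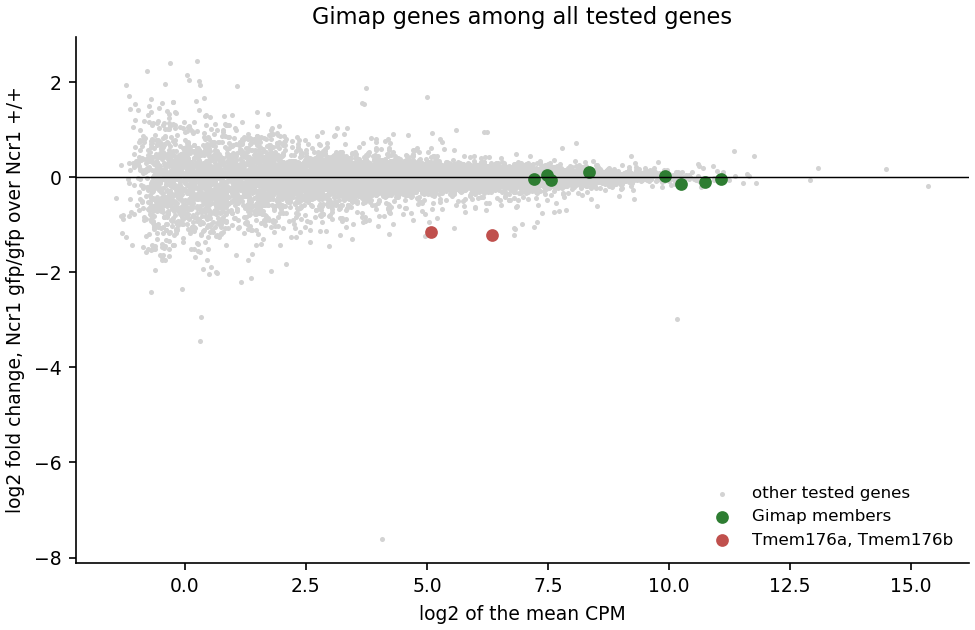
Log2 fold change of *Ncr1gfp/gfp* over *Ncr1+/+* ILC1s against the log2 of the mean CPM for all 11463 tested genes (grey), with the *Gimap* genes in green and *Tmem176a* and *Tmem176b* in red. The *Gimap* genes lie to the right and within 0.15 of 0, whereas both *Tmem176* genes lie below -1.

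The members did not move as a single unit from library to library. After the mean of each genotype was taken off, the correlation of log2 CPM between members over the 10 libraries had a median Pearson r of 0.21 over the 28 pairs and was above 0 in 19 of them. These correlations are a description, since all points share the library and its scaling. *Gimap4* and *Gimap6*, which are next to each other on opposite strands, had an r of 0.78, and *Gimap8* and *Gimap9*, at the other end of the cluster from *Gimap3*, had an r of 0.76. In contrast, r was 0.03 for *Gimap1* and *Gimap5*, the closest pair on the chromosome, and -0.63 for *Gimap5* and *Gimap7*. *Ncr1gfp/gfp* replicate 2 was the lowest *Ncr1gfp/gfp* library for 6 of the 8 members and the highest for *Gimap7*. It was also the deepest *Ncr1gfp/gfp* library, with 21975879 counts, and the part of depth in these values was not tested.

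The 5 tested genes outside the family whose deviations were most like the mean of the members were *Baz2b*, *C430049B03Rik*, *Rbl2*, *Nsun3* and *Ciz1*, out of 11455 genes ranked by Pearson r over the 10 libraries. Their r was between 0.92 and 0.93. As the highest of 11455 correlations over 10 libraries, values of this size can arise by chance, and no test was made. *C430049B03Rik* was low, at 1.91 CPM in *Ncr1gfp/gfp* and 1.58 CPM in *Ncr1+/+* ILC1s. *Rbl2*, which encodes the retinoblastoma relative p130 of resting cells, had the highest CPM of the 5 genes, at 558 in *Ncr1gfp/gfp* and 595 in *Ncr1+/+* ILC1s. None of these genes was called between the genotypes, with adjusted p-values between 0.582 and 0.903 (edgeR's quasi-likelihood test).

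Most tested genes around the cluster were not called either. Within 500 kb of the outermost members the table lists 25 other genes, of which 8 had no count in any library and 13 were tested. Of the tested neighbours, 2 were called, both lower, where 0.532% of all tested genes were called lower. The 2 called neighbours were *Tmem176b* and *Tmem176a*, which encode membrane proteins related to the MS4A family. *Tmem176b* lies 63.0 kb beyond the end of *Gimap3*. It had 50.8, 42.4, 50.7, 42.5 and 56.6 CPM in *Ncr1gfp/gfp* replicates 1 to 5 and 135, 92.6, 105, 120 and 113 CPM in *Ncr1+/+* replicates 1 to 5. Every *Ncr1gfp/gfp* value was below every *Ncr1+/+* value for this gene, and the same was true of *Tmem176a*. A lack of overlap in that direction was found for 1.82% of all tested genes.

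The log2 fold changes were -1.22 for *Tmem176b* and -1.16 for *Tmem176a* with standard errors of 0.10 and 0.14, and edgeR's quasi-likelihood test gave adjusted p-values of 3.20e-07 and 5.35e-05. On the other side of the cluster, the nearest tested gene was *AI854703*, which ends 13.5 kb before *Gimap8*. It was low, at 2.34 and 3.47 CPM, and its log2 fold change of -0.56 had a wide 95% interval from -1.31 to 0.18. The other tested neighbours, *Krba1*, *Zfp467*, *Sspo*, *Zfp862-ps*, *Lrrc61*, *Repin1*, *Zfp775*, *Gpnmb*, *Malsu1* and *Tra2a*, were not called, with log2 fold changes between -0.33 for *Sspo* and 0.42 for *Gpnmb*.

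**Figure D5:**
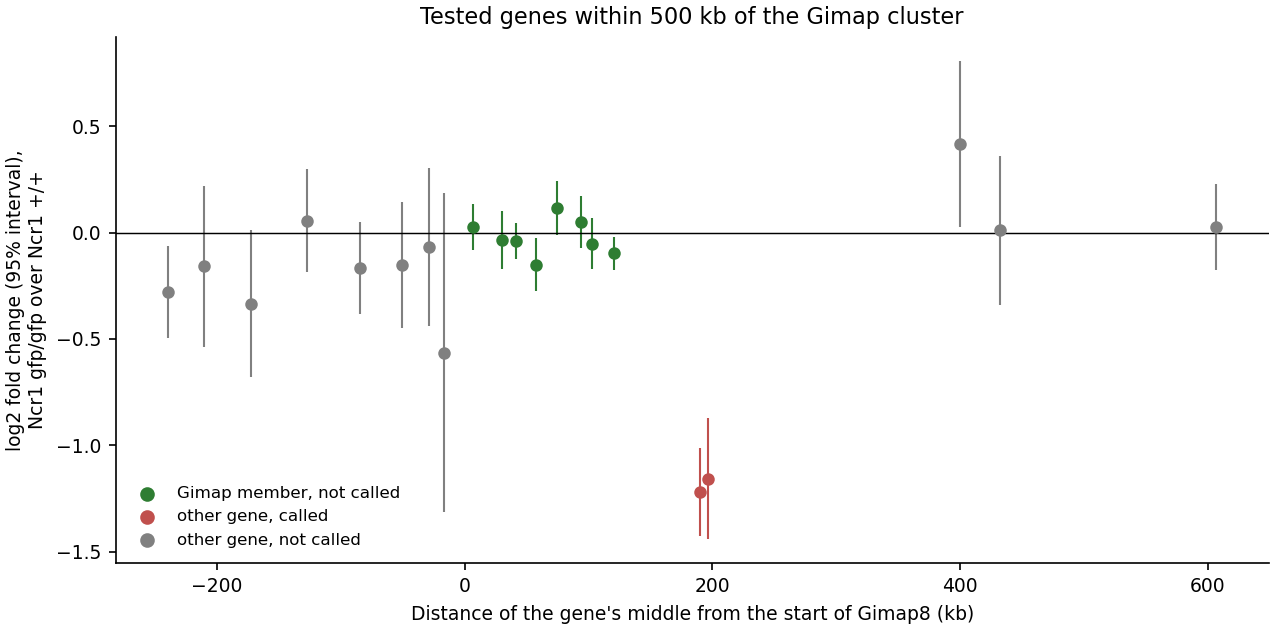
Log2 fold change (95% interval) of *Ncr1gfp/gfp* over *Ncr1+/+* ILC1s for the 21 tested genes within 500 kb of the cluster, by the distance of the middle of the gene from the start of *Gimap8* in kb. The 8 *Gimap* genes (green) lie near 0, the called genes *Tmem176b* and *Tmem176a* (red) lie near -1.2, and the remaining neighbours (grey) were not called.

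Genes that are linked to the family by function were examined as lists. BCL2 family proteins set the threshold for mitochondrial cell death, and several of them have been reported to bind GIMAP proteins. Of the 10 genes on this list all were tested and 0 were called in either direction, against 0.733% of all tested genes. The median log2 fold change was 0.02. *Bcl2*, the survival protein, had 782 and 709 CPM in *Ncr1gfp/gfp* and *Ncr1+/+* ILC1s, and *Bcl2l11*, which encodes the death inducer BIM, had 276 and 269 CPM. The log2 fold changes furthest from 0 were -0.93 for *Pmaip1* and -0.22 for *Bax* (adjusted p = 0.496 and 0.410, edgeR's quasi-likelihood test). *Pmaip1* was low, at 1.24 and 2.37 CPM in the same order of genotypes.

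Of 23 autophagy genes, all tested, 0 were called as well, against 0.733% of all tested genes. The median log2 fold change of these autophagy genes was -0.03. *Gabarapl2*, the partner of GIMAP6, had 12.2 and 14.1 CPM in *Ncr1gfp/gfp* and *Ncr1+/+* ILC1s (adjusted p = 0.748, edgeR's quasi-likelihood test). *Ulk1*, the kinase that starts autophagy, had the lowest adjusted p-value of the list at 0.0713 in this test, with a log2 fold change of -0.29. Its CPM and that of *Gabarapl1*, with a log2 fold change of -0.32, did not overlap between the genotypes. This was so in that direction for 1.82% of all tested genes.

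Some transcripts of resting lymphocytes, in which *Gimap* genes are known to be high, were lower. Of the 12 genes on this list, 11 were tested, and 2 were called, both lower in *Ncr1gfp/gfp* ILC1s. Over all tested genes, 0.532% were called lower. The 2 called genes of the list were *Tcf7*, which encodes the transcription factor TCF-1, and *Il7r*, which encodes the IL-7 receptor. The libraries of the genotypes overlapped for both. Their log2 fold changes were -0.63 and -0.97 (adjusted p = 0.0247 and 0.00773, edgeR's quasi-likelihood test). The study had already reported *Il7r* as lower from these same libraries, so its call here repeats that result. The median log2 fold change of the list was -0.45, against 0.003 over all tested genes and -0.04 for the *Gimap* members. *Klf2*, *Lef1*, *Bach2* and *Klf3* had log2 fold changes of -0.87, -0.56, -0.45 and -0.51 without passing the thresholds.

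T cells and NK cells also express *Gimap* genes. Between the genotypes, 3 T cell markers and 1 NK cell marker were called, where 0.733% of all tested genes were called. Of the 10 T cell markers 7 were tested. *Cd3e* and *Cd8a* were called higher and *Cd28* lower in *Ncr1gfp/gfp* ILC1s. The other tested T cell markers, *Cd3d*, *Cd3g*, *Cd247* and *Cd4*, had log2 fold changes of 1.04, 0.45, 0.21 and 0.25. Of these, *Cd3g* had an adjusted p-value under 0.05 (0.00169, edgeR's quasi-likelihood test), with a fold change of 1.37. The summed T cell markers were between 744 and 946 CPM in *Ncr1gfp/gfp* and between 575 and 696 CPM in *Ncr1+/+* ILC1s, and most of this sum was *Cd3g*, at 687 and 501 CPM. *Cd8b1*, *Cd5* and *Cd6* were below 1 CPM on average in both genotypes. Of the 7 NK cell markers 6 were tested and only *Itgam* was called, higher at 96.0 against 49.4 CPM. The NK cell marker sum was between 210 and 310 CPM in *Ncr1gfp/gfp* and between 157 and 197 CPM in *Ncr1+/+* ILC1s. Most of this difference was *Itgam*. *Itga2*, which encodes the CD49b gated out in the sort, was also higher in *Ncr1gfp/gfp* ILC1s, with overlapping libraries. Its fold change was 1.21 (adjusted p = 0.331, edgeR's quasi-likelihood test). In *Ncr1gfp/gfp* and *Ncr1+/+* ILC1s, *Klra9* had 80.3 and 78.3 CPM and *Eomes* 10.2 and 7.10 CPM. *Klra8* had 4.11 and 3.41 CPM and *S1pr5* 3.76 and 4.64 CPM in the same order, and *Klra4* had no count. The part of these cells in the *Gimap* values was not tested, and in bulk libraries fewer cells with a transcript and less transcript per cell cannot be told apart.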

How the data were processed

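RNA-seq counts of 5 *Ncr1gfp/gfp* and 5 *Ncr1+/+* liver ILC1 libraries were analysed, grouped by the genotype in the labels. The authors amplified cDNA with a SMART-Seq v4 kit, which does not keep the strand, sequenced single reads, trimmed them with Trimmomatic and FASTP, mapped them to mm10 with STAR and counted them with HTSeq at default settings, and they deposited whole-number counts per gene without normalization. The coordinates in the table are not those of GRCm38.p6 and are given as listed.

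In R 4.3.3, edgeR 4.0.16 was used to filter low counts (filterByExpr), scale libraries (TMM) and run quasi-likelihood tests, with no covariate and with Benjamini-Hochberg adjustment over 11463 genes. Standard errors came from the F statistic and 95% intervals from its degrees of freedom. CPM and RPKM values use TMM-scaled library sizes, and log2 CPM a prior count of 2. Exact permutation tests were two-sided. A level of 3 counts was 0.132 to 0.190 CPM, which covers counting error only. Within genotypes, all 20 library pairs differed beyond sampling noise (chi-square per gene 9.18 to 24.0), and each library was counted once. The steps were tested on simulated data.

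Alternatives were DESeq2 1.42.0, limma-voom (limma 3.58.1), edgeR's likelihood ratio test, other scalings, filters and thresholds, a replicate block, and leaving out each library. Named genes were the 8 members, tested genes within 500 kb, the 5 genes most alike in deviations, and list members that were called; other list members and library-by-library patterns were named after their values were seen. The members and lists were chosen with earlier results of these data known.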

Additional observations from a re-analysis of the deposited data

Results flagged for a closer look

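The members, *Tmem176a*, *Tmem176b*, library totals and the family's share of counts were examined for a single library far from the other 4 of its genotype, where its distance from the next value exceeded 0.71 of the spread from lowest to highest. This was so in 2 of the 24 sets of 5 libraries, and chance alone would give 1.2. *Gimap3* was 1861 CPM in *Ncr1+/+* replicate 1, against 1757 CPM in the next *Ncr1+/+* library. *Gimap8* was 894 CPM in *Ncr1+/+* replicate 2, against 972 CPM in the next. *Ncr1+/+* replicate 2 was also the deepest library, with 22623133 counts, and the part of depth was not tested.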

How the results depend on the processing

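No member was called under any of the 18 alternative fits or the 2 other thresholds. Of 144 member values, 141 kept their direction. The exceptions were *Gimap8*, at -0.012 without *Ncr1gfp/gfp* replicate 1 and -0.00075 without *Ncr1+/+* replicate 2, against 0.03 with all libraries, and *Gimap9*, at 0.0049 without *Ncr1gfp/gfp* replicate 2, against -0.03. With each library left out, log2 fold changes were -0.012 to 0.054 for *Gimap8* and -0.065 to 0.0049 for *Gimap9*, and -0.10 to -0.08 for *Gimap3*, -0.18 to -0.10 for *Gimap6*, 0.076 to 0.14 for *Gimap7*, -0.075 to -0.017 for *Gimap5*, -0.068 to -0.023 for *Gimap4* and 0.024 to 0.076 for *Gimap1*. The count of all genes called was 84, and 126 with DESeq2, 77 with limma-voom, 138 with the likelihood ratio test, 131 without a filter on low counts, 155 with no threshold on the fold change, 23 with an absolute log2 fold change above 1, and 60 to 98 with a library left out. The scalings moved the median of all genes by at most 0.003. The replicate numbers did not pair the libraries (correlations of same-numbered libraries -0.02 to 0.04, with 1 of 10 libraries most like its own number), and a replicate block gave 87 called genes and 0 members.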

Other observations

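In *Ncr1+/+* ILC1s, *Gimap5* varied less between libraries than counting error alone would give, with a coefficient of variation of 0.890% against 1.62% from its counts, whereas in *Ncr1gfp/gfp* ILC1s it was 6.59% against 1.74%. No test of this difference was made, since the gene was singled out after its values were seen.

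The ratio of *Gimap6* to *Gimap7* CPM, also singled out afterwards, was 3.87, 2.69, 3.26, 3.71 and 3.52 in *Ncr1gfp/gfp* replicates 1 to 5 and 4.70, 4.56, 3.91, 3.68 and 3.57 in *Ncr1+/+* replicates 1 to 5. The 3 highest ratios were all in *Ncr1+/+* libraries, and the other 2 *Ncr1+/+* libraries lay within the *Ncr1gfp/gfp* range.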
